A study of Mus musculus with 4 samples.

Results

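The cytosolic ribosomal protein genes were followed in liver RNA of mice at 4 ages (3, 9, 15 or 21 months). They were chosen by name alone: a gene symbol made of Rpl or Rps and a number, with or without a final a or x, or Rpsa, Rplp0, Rplp1 or Rplp2. This gave 76 of the 33924 gene symbols in the count tables, 45 for proteins of the large ribosomal subunit and 31 for proteins of the small subunit. Each age was represented by 1 library, made from equal amounts of RNA of 24 male mice of strain C57BL6 (C57BL/6Rj in the study's methods), 4 at each of 6 times of the day. Uncapped RNA had been digested, so that reads of 35 bases were meant to come from the capped 5’-ends of RNA. There were no replicate libraries, and differences between individual mice or times of day are averaged within a pool and cannot be seen. In whole liver, fewer cells of a type and less RNA per cell cannot be told apart.

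A ribosome translates mRNA into protein. The small subunit reads the mRNA and the large subunit joins the amino acids, and most of the proteins described here are needed in a fixed proportion, as each ribosome holds a single copy of them. Ribosomal protein mRNAs are among the most abundant in most cells, and their translation is controlled together in response to nutrients, through a run of pyrimidines (C and T in the DNA) that starts with a C at the capped 5’-end, the TOP motif (terminal oligopyrimidine).

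Since the libraries were made to capture 5’-ends, the sequence around the annotated start is shown for some members that the results below turn on. RefSeq promoters on GRCm38.p6 were at hand for 55 of the 76 genes (65 starts in all), and the build differs from the mm9 assembly of the counts. Capitals mark the longest run of C and T inside the stretch from 20 bases before to 40 bases after the annotated start, and each window holds 30 bases of the gene strand, written 5’ to 3’. For Rps24 and Rpl10a, only the annotated start with the longer run is shown (9 and 10 bases, against 7 at the other start of each). A marked run need not lie at the start itself. That of Rpsa begins 20 bases after the annotated start and that of Rpl10a 17 bases after it. The run of Rpl39 begins 20 bases before the start, at the edge of the stretch searched, and ends before the start. Rpsa, Rpl39, Rps24, Rplp2 and Rpl10a were counted most often among all members, Rpl38, Rps10 and Rps18 are taken up below, and Rpl35 and Rps12 were not counted at all.
Rpsa, chr9:120127775-120127804, plus strand: ccggccgcccgTCCTTTCgcgctacccggg
Rpl39, chrX:37085224-37085253, minus strand: gagtcatccatCCCCCCCTaagctccgcct
Rps24, chr14:24490665-24490694, plus strand: cgcgctggggTCCTTCCTTgcgcgttgata
Rplp2, chr7:141447636-141447665, plus strand: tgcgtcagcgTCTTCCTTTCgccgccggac
Rpl10a, chr17:28328572-28328601, plus strand: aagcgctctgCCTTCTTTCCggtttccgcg
Rpl38, chr11:114668568-114668597, plus strand: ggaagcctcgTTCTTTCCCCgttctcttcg
Rps10, chr17:27635226-27635255, minus strand: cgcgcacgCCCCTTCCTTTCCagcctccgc
Rps18, chr17:33955647-33955676, minus strand: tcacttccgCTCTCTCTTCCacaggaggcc
Rpl35, chr2:39005115-39005144, minus strand: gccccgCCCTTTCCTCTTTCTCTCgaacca
Rps12, chr10:23787181-23787210, minus strand: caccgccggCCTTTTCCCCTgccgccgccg
The runs shown range from 7 bases in Rpsa to 18 bases in Rpl35. A run of at least 8 bases was found in this stretch at 42 of the 65 starts (64.6%) and at 21.8% of all 32851 promoters, with a median longest run of 9 and 5 bases. The GC box GGGCGG was found on either strand at 60.0% of the members' starts and at 35.7% of all promoters, from 250 bases before to 50 bases after the start. The ETS motif CCGGAAG was found at 35.4% and 8.86%, and the YY1 motif AAGATGGC at 10.8% and 2.75%. TATAAA within the 40 bases before the start, on the gene strand, was found at none of the 65 starts and at 2.31% of all promoters. These are matches of letters, and where the reads of a gene began was not measured.

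Depth was lowest at 15 months, with 525772 counts assigned to genes, and highest at 9 months, with 958586. Therefore, 3 counts correspond to between 3.13 and 5.71 cpm (counts per 1000000 counts on genes). Of all records in a file, between 72.2% (3 months) and 76.7% (9 months) were set aside because the read did not map uniquely. Liver identity was given by 6 hepatocyte genes (among them Alb and Ttr), whose counts summed to between 90300 and 101000 cpm in the 4 libraries.

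The ribosomal protein genes took a larger share of the 3 month library than of the other libraries. Their counts summed to 8591, 5813, 3292 and 4970 at 3, 9, 15 and 21 months, or 0.899%, 0.606%, 0.626% and 0.675% of all counts on genes. The 95% Wilson intervals, which cover counting error only, were 0.88 to 0.918, 0.591 to 0.622, 0.605 to 0.648 and 0.657 to 0.694%. The interval at 3 months does not overlap with the others.

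A single gene made up much of this. Rpsa alone accounted for 30.5% of the members' counts at 3 months and for 18%, 18% and 14.2% at the later ages. Without Rpsa the shares were 0.625%, 0.497%, 0.514% and 0.579%, still highest at 3 months. Rpl39 was also highest there, with 1710, 1110, 1120 and 1430 cpm at 3, 9, 15 and 21 months. So were Rplp2 (439, 145, 232 and 287 cpm) and Rpl10a (408, 176, 146 and 235 cpm). The shares without Rpsa still hold these genes, and the share without them was not calculated. A higher share at 3 months is therefore not shown for the remaining members. Of the 34 members with a mean of at least 20 counts, 10 had their highest level (clr, defined below) at 3 months. This was so for 30.6% of all 2974 genes with such a mean, so that the larger share does not describe most members. The large subunit genes, with Rpl39, Rplp2 and Rpl10a among them, took 0.438%, 0.315%, 0.337% and 0.387%. The small subunit genes took 0.46%, 0.291%, 0.289% and 0.288% with Rpsa, and between 0.177% and 0.192% without it. No gene was left out of the large subunit, so that these values do not show a difference between the subunits. The 5 most counted members held 68.3% of the members' counts at 3 months and between 56.1% and 58.8% later.

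**Figure D1:**
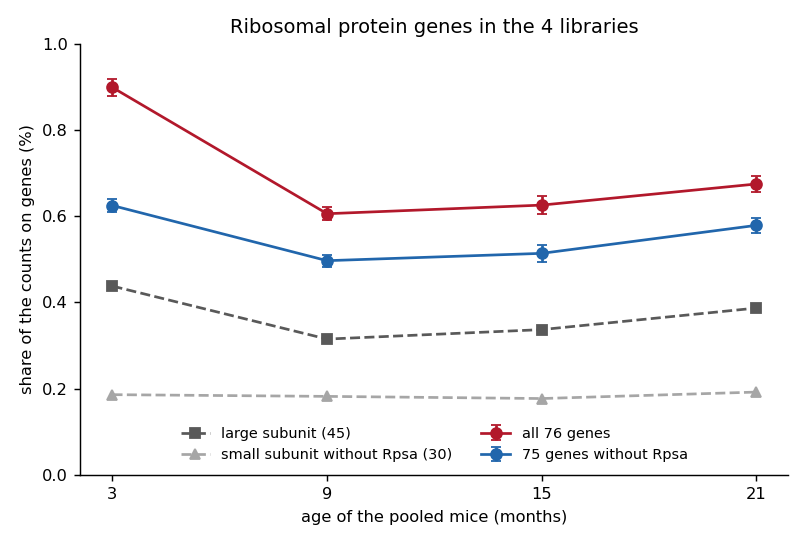
Share of all counts on genes (%, vertical axis) taken by the ribosomal protein genes in each library, against the age of the pooled mice (months). Points with bars are shares with 95% Wilson intervals (counting error only). Squares are the large subunit and triangles the small subunit without Rpsa, both drawn without intervals. The share of all 76 genes lies at 0.899% at 3 months and between 0.606% and 0.675% at the other ages.

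Members differed widely in how often they were counted. In all 4 libraries at least 1 read was found for 64 of the 76 genes, in 3 libraries for 7, in 2 for 2 and in 1 for 1, and 2 genes (Rpl35 and Rps12) were listed at 0 throughout. A mean of at least 20 counts was reached by 34 genes, 23 of the large and 11 of the small subunit. The other 42 are too sparse for a statement on age. Levels are given below as the centered log-ratio (clr), the natural logarithm of a count over the geometric mean of the 8704 genes counted in every library.

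The highest mean clr over the 4 ages was that of Rpsa (4.34), followed by Rpl39 (4.32), Rps24 (3.88), Rplp2 (2.68), Rpl32 (2.63), Rpl10a (2.54), Rpl36a (2.37), Rpl5 (2.35) and Rps10 (2.30). Rpsa ranged from 4.0 to 5.08 and Rpl39 from 4.1 to 4.6, so that both ranges overlap and the order of these neighbours is not fixed. Rps24, from 3.75 to 3.99, lay below Rpl39 in all 4 libraries, and Rplp2, from 2.16 to 3.25, below Rps24. From Rplp2 to Rps10 all neighbouring ranges overlap. A read from a capped end does not depend on the length of its transcript, but the share of reads from capped ends was not measured. Divided by transcript length all the same, the order of the leading genes was Rpl39 with a mean of 2190 cpm per kb, Rps24 with 1020 and Rpsa with 795. Among the lowest mean clr of the genes counted in every library were -1.61 for Rpl31, -1.41 for Rpl10 and -1.26 for Rpl23a, none of which had more than 10 counts in a library.

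**Figure D2:**
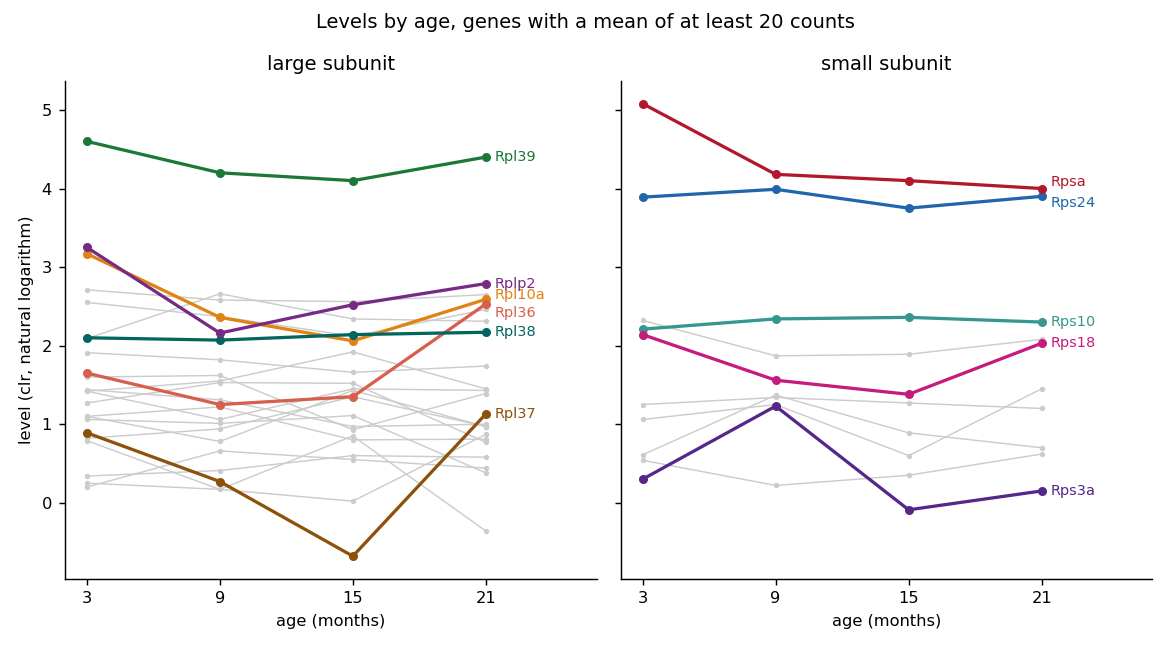
Level (clr, natural logarithm) of ribosomal protein genes with a mean of at least 20 counts, against age (months), 1 point per library. Large subunit on the left, small subunit on the right, with some of the genes named in the text in colour and the others in grey. Rpsa stands at 5.08 at 3 months and between 4.0 and 4.18 later, and Rpl36 stands at 2.53 at 21 months and at or below 1.65 before.

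In the small subunit, Rpsa was counted most often. It encodes a protein of the small subunit that is also known as a precursor of the laminin receptor, and its gene is annotated on chromosome 9, plus strand, bases 120036884 to 120041487 of NCBIM37 (mm9). It had 2620, 1049, 591 and 708 counts at 3, 9, 15 and 21 months. Thus, the 3 month library stood apart, and the 3 older libraries lay close together. Against 3 months the level was 0.409-fold at 9 months (95% counting interval from 0.381 to 0.44), 0.375-fold at 15 months (0.342 to 0.41) and 0.342-fold at 21 months (0.314 to 0.371). Between 9 and 21 months the ratio was 0.835 (0.758 to 0.919).

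Rpsa was the only member called for an age trend, and the call depended on the scaling. In edgeR's quasi-likelihood test of a linear slope on age with Benjamini-Hochberg adjustment over 5569 genes, it fell by 1.43 on the log2 scale over 18 months (SE 0.33, adjusted p = 0.0416). Over all genes 0.0539% fell in this test, which has 2 residual degrees of freedom. At nearly the same change the call was lost with library totals (log2 change of -1.4, adjusted p = 0.164), with the geometric mean on which the clr is based (-1.47, adjusted p = 0.0663) and in DESeq2's Wald test (-1.44, adjusted p = 0.774). It also rests on the youngest pool: in a fit without the 3 month library the log2 change was -0.39 (adjusted p = 0.999, quasi-likelihood test of edgeR). The same library had the lowest share of records set aside because the read did not map uniquely. Only 34.8% of the 35-base windows in the first 100 bases of Rpsa were unique in the genome, and the part of mapping in the difference was not tested.

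Rps24, of which mutations cause Diamond-Blackfan anemia in humans, was more even, with 801, 864, 417 and 641 counts. Its ratios to 3 months were 1.10, 0.866 (0.767 to 0.975) and 1.01, and its counts differed beyond counting noise (adjusted p = 0.00315, chi-square test over the 4 libraries). Rps10, located near the entry of the mRNA, had 149, 166, 104 and 129 counts, and Rps2 had 57, 61, 35 and 43 counts. These genes had a low variance of clr, 0.0101, 0.00439 and 0.00326, and for Rps10 and Rps2 no difference beyond counting noise was detected (adjusted p = 0.666 and 0.929, same chi-square test, which permits no statement on age).

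Others of the small subunit varied more and not in the same order. Rps18, a common reference gene, had 139, 76, 39 and 99 counts. Its level was 0.559-fold at 9 months, 0.466-fold at 15 months (0.318 to 0.67) and 0.901-fold at 21 months (0.689 to 1.17), so that the low values were those of 9 and 15 months. Rps3a with 22, 55, 9 and 15 counts and Rps3 with 30, 63, 24 and 26 counts were highest at 9 months, 2.56-fold (1.53 to 4.4) and 2.15-fold (1.37 to 3.44) above 3 months. Rps15a, with 47, 56, 18 and 55 counts, was 1.48-fold at 21 months (0.984 to 2.23).

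In the large subunit, Rpl39 was the most abundant member. It encodes a very small protein at the exit tunnel, through which the new peptide leaves. It had 1633, 1064, 591 and 1052 counts, and its level was 0.666-fold at 9 months (0.616 to 0.72), 0.602-fold at 15 months (0.547 to 0.661) and 0.815-fold at 21 months (0.753 to 0.881). The slope over age, -0.27 on the log2 scale (SE 0.32), did not pass the test (adjusted p = 0.998, edgeR's quasi-likelihood test).

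Rplp0, Rplp1 and Rplp2 form the stalk that binds elongation factors, where several copies of Rplp1 and Rplp2 sit on Rplp0. Rplp2 had 420, 139, 122 and 211 counts and was highest at 3 months, with 0.338-fold (0.277 to 0.411), 0.483-fold (0.391 to 0.592) and 0.635-fold (0.536 to 0.751) of this level later. Rplp1 had 58, 74, 45 and 28 counts and was 0.61-fold at 21 months (0.374 to 0.974). Rplp0 had 49, 54, 22 and 29 counts, and its interval at 21 months, 0.456 to 1.21, includes no change. Between 9 and 15 months the ratio of Rplp1 was 0.989 (0.667 to 1.45). Rpl10a, which forms the stalk on the opposite side near the exit of tRNA, had 390, 169, 77 and 173 counts, or 0.443-fold, 0.328-fold and 0.561-fold of the level at 3 months. Like Rpsa and Rplp2 it was highest in the youngest pool, but its level at 21 months was 1.71-fold that at 15 months (1.3 to 2.27).

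The opposite was seen for Rpl36, with 85, 56, 38 and 163 counts. At 21 months it was 2.42-fold higher than at 3 months (1.85 to 3.19) and 3.26-fold higher than at 15 months (2.28 to 4.77). The slope did not pass the test (log2 change of 1.32, SE 0.42, adjusted p = 0.345, edgeR's quasi-likelihood test). Rpl7a, with 21, 19, 10 and 31 counts, was 1.87-fold at 21 months (1.04 to 3.42). Only 21.2% of the windows of Rpl36 and 4.55% of those of Rpl7a were unique.

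Rpl37 had the highest variance of clr among the 34 genes, 0.65, owing to 5 counts at 15 months against 40, 21 and 40 at the other ages. It was followed by Rpl36 (0.34), Rps3a (0.337), Rpl27a (0.327) and Rpsa (0.247). Rpl27a had 36, 19, 23 and 9 counts and was 0.316-fold at 21 months (0.134 to 0.669). Rpl26 was 0.511-fold at 21 months (0.283 to 0.888), with 47, 44, 30 and 19 counts.

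At the other end, Rpl38, of which a mutation in mice disturbs the pattern of the skeleton, had the lowest variance of clr, 0.00192. It had 133, 127, 84 and 113 counts, and its ratios to 3 months were 0.976, 1.05 and 1.07. Rpl32, with 246, 211, 127 and 184 counts, had a variance of 0.00493. The variance expected from counting alone, the mean of the reciprocal counts, was 0.00904 for Rpl38 and 0.00553 for Rpl32. Differences between the ages were therefore not detectable for these genes at this depth.

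Rpl5 and Rpl11 bind the 5S rRNA and, when free of the ribosome, Mdm2. Rpl5 had 132, 229, 102 and 130 counts and was 1.77-fold higher at 9 than at 3 months (1.43 to 2.21). Rpl11 had 21, 10, 5 and 8 counts. Rpl4, which lines the exit tunnel, had 49, 35, 41 and 34 counts and no ratio to 3 months whose interval excludes no change. Rpl34 with 37, 41, 38 and 34 counts and Rpl7 with 68, 75, 67 and 55 counts had the highest ratios of 15 to 3 months among the 34 genes with a mean of at least 20 counts, 1.71 (1.06 to 2.76) and 1.64 (1.15 to 2.33). Rpl24 had 20, 31, 17 and 20 counts and a ratio of 1.41 (0.695 to 2.84), and Rpl29 23, 24, 18 and 23 counts and a ratio of 1.26 at 21 months (0.678 to 2.36).

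**Figure D3:**
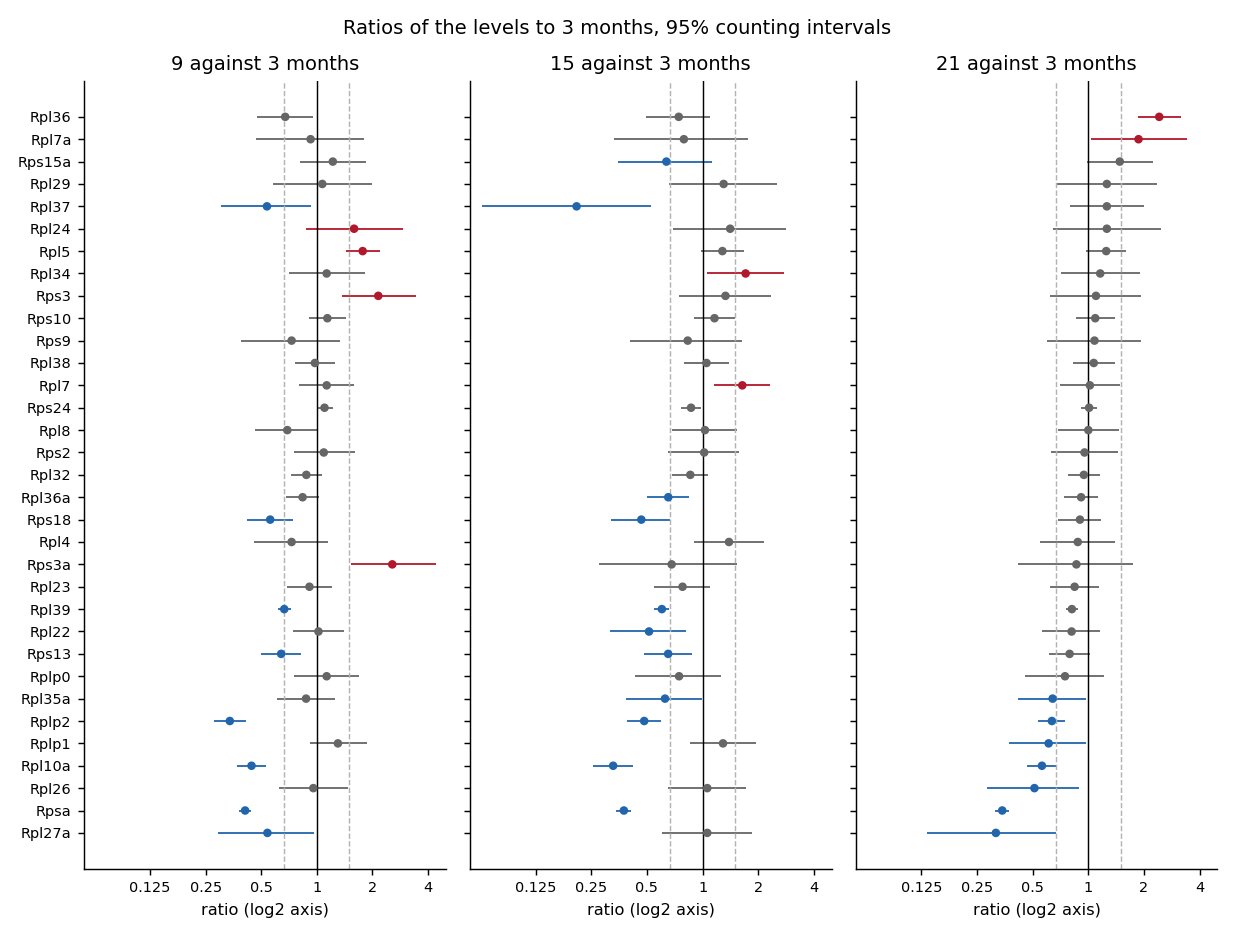
Ratio of the level (clr scale) at 9, 15 and 21 months to that at 3 months (log2 axis) for ribosomal protein genes with a mean of at least 20 counts, ordered by the ratio at 21 months. Lines are 95% Clopper-Pearson intervals of the ratio of both counts (counting error only), dashed lines mark 1.5-fold, and genes past it are in red (higher) or blue (lower). Rpl36 and Rpl7a lie above 1.5-fold at 21 months, and Rpsa, Rplp2 and Rpl10a lie below in all 3 panels, which share the 3 month library.

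As a group, the members had medians slightly below those of all genes. The median log2 ratio of the 34 genes to 3 months was -0.12 at 9 months, -0.24 at 15 months and -0.07 at 21 months, beside -0.03, -0.14 and -0.03 for all 2974 genes with the same mean count. The 3 comparisons share the 3 month library. At 9 months 4 of 34 members were more than 1.5-fold higher, as were 12.1% of all genes, and 8 (23.5%) lower, as were 14.7% of all genes. At 15 months 2 (5.88%) were higher and 11 (32.4%) lower, beside 11.6% and 21.8% of all genes. At 21 months 2 were higher and 7 (20.6%) lower, beside 12.3% and 16.7% of all genes. The share of lower members was above that of all genes at each age, but with 34 genes and 1 library per age these differences were not tested. The balance of higher and lower members moved with the scaling, from 4 and 8 to 3 and 13 at 9 months with the geometric mean of 7 marker genes (7.6% and 22.3% of all genes). With library totals it moved from 2 and 11 to 4 and 7 at 15 months (16.3% and 16.5% of all genes) and from 2 and 7 to 4 and 7 at 21 months (13.6% and 15.5%). Rpl39 at 9 months lies just inside the threshold with a ratio of 0.666, and Rpl36 just outside with 0.674. Over the 21 members with at least 50% unique windows, the median was 0.04 at 15 months and 0.01 at 21 months.

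In the trend test, which covered 44 members, none rose and 1 fell, beside 3 rising and 3 falling genes of 5569 (0.0539% each). Slopes were positive in 21 and negative in 23 members, with a median of -0.043 on the log2 scale over 18 months and of -0.001 over all genes. The unadjusted p was below 0.05 for 5 members (11.4%) and for 290 genes (5.21%). Besides Rpsa these were Rpl10a, Rpl36, Rps29 and Rpl28, the last 2 of which were named after their values had been seen. Rps29 had 46, 13, 10 and 7 counts and Rpl28 16, 11, 11 and 33 counts. DESeq2's Wald test called no gene, and 130 genes had an unadjusted p below 0.05 in it.

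The study had looked for genes with a mean clr above and a variance of clr below the medians of all genes, here -0.21 and 0.16. By its methods the study kept a smaller set, 5’-ends of genes read at least 20 times in a library. The medians here are over 8704 genes with a count in every library, so that the cut-offs are not those of the study. Both criteria were met by 30 of the 64 members counted in every library (46.9%) and by 38.1% of all 8704 genes. Their median variance was 0.134. Among genes with a mean of at least 20 counts the median variance was 0.0547 for the members and 0.0564 for all genes, and both criteria were met by 27 of the 34 members (79.4%) and by 84.2% of all 2974 genes. The 7 that did not were Rpsa, Rplp2, Rpl10a, Rpl36, Rpl37, Rpl27a and Rps3a, each by its variance. The 4 counts differed beyond counting noise for 20 of the 34 members (58.8%) and for 45.9% of all 2974 genes.

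**Figure D4:**
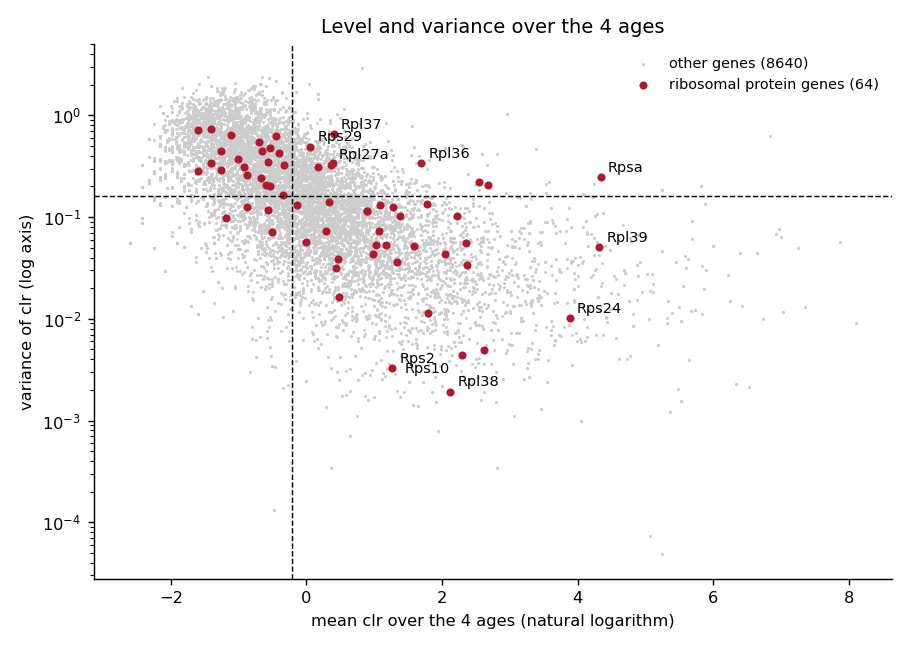
Variance of clr over the 4 ages (log axis) against mean clr (natural logarithm) for 64 ribosomal protein genes (red) and all other genes (grey) counted in every library. Dashed lines are the medians of all genes, -0.21 and 0.16. Rpl38 has the lowest variance of the members (0.00192), and Rpsa has the highest mean at a variance of 0.247.

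Of the members in common use as reference genes, Rplp0 and Rps18 met both criteria as applied here and Rpl13a did not. Rpl13a had 4, 19, 4 and 8 counts, too few for quantification. Rps18 had a variance of 0.135 and its counts differed beyond counting noise (adjusted p = 9.32e-06, chi-square test over the 4 libraries), whereas Rplp0 had a variance of 0.0434 (adjusted p = 0.271).

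Several well-known members were near the limit of detection. Rps6, the target of S6 kinase, had 17, 9, 4 and 5 counts. Rps19, the gene most often mutated in Diamond-Blackfan anemia, had 5, 5, 5 and 8 counts, and Rps26, at the exit of the mRNA, 8, 14, 5 and 8 counts. Rpl10, a protein that joins late in assembly, had 2, 3, 4 and 5 counts. Rpl3, near the centre of peptide bond formation, had 1, 2, 1 and 0 counts. These counts are far below those of Rpsa or Rpl39.

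Ribosomal protein genes have many processed copies in the genome, and reads without a unique place were not counted. To see how far this reaches, each stretch of 35 bases (a window) within the initial 100 bases of a transcript was looked up in NCBIM37, allowing 1 mismatch. In the median member 57.9% of the windows were unique, beside 97.0% in other protein-coding genes. Fewer than 50% unique windows were found for 31 of the 76 members (40.8%) and for 15.4% of other protein-coding genes, and no unique window for 7 members (9.21%), among them Rplp1, Rpl14, Rpl31, Rps25, Rps26 and Rps27, and for 8.41% of other protein-coding genes. Moreover, 52 members (68.4%) had windows, such as those across exon junctions, that matched other places but not the genomic sequence of their own gene, as did 1.82% of other genes.

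Levels and the share of unique windows had little in common. Spearman's rho with the mean count was 0.07 over the 76 genes of the same libraries. The median of the mean counts was 8.75 for the 31 members below 50% and 19.0 for the other 45. Rpl32 with 7.58% and Rpl36a with 14.7% unique windows were among the most counted members, and Rplp1 with none had between 28 and 74 counts. Conversely, all windows of Rpl35 were unique, yet it was listed at 0. Of its 1241 exon bases, 821 lie opposite exons of Wdr38, which was also listed at 0. HTSeq sets aside reads that fall on 2 genes as ambiguous, and whether it used strand is not given in the sources used here, so that a 0 does not show that Rpl35 was absent. For Rps12, also at 0, 10.6% of the windows were unique.

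**Figure D5:**
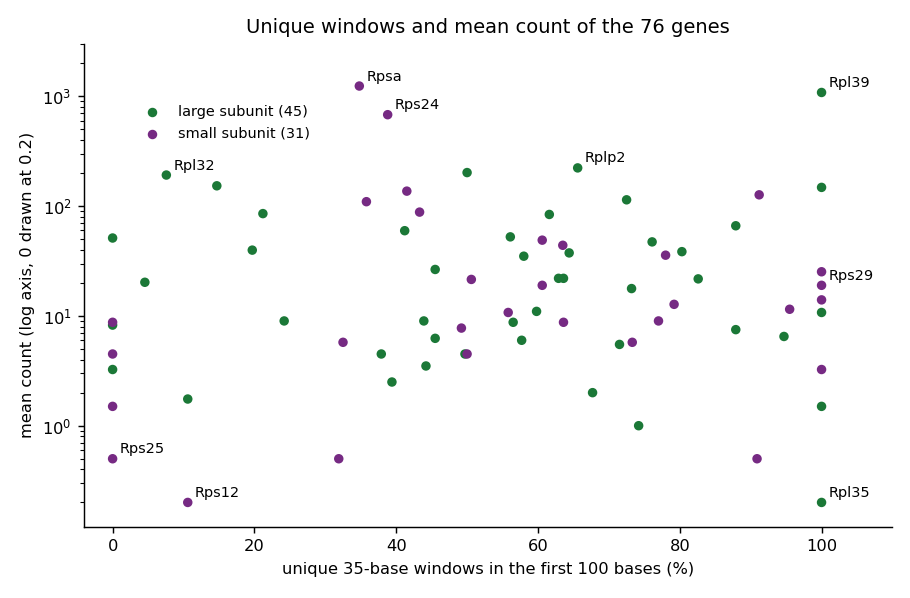
Mean count over the 4 libraries (log axis, genes at 0 drawn at 0.2) against the share of unique 35-base windows in the first 100 bases (%) for the 76 ribosomal protein genes, 45 of the large (green) and 31 of the small subunit (purple). High and low counts occur at all shares: Rpl39 and Rpl35 both have only unique windows, with 1085 counts on average and none.

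For 8 members a paralogue was listed. Rpl39l, Rpl3l and Rpl10l, known from testis or muscle, were at 0 in all libraries. Rpl36al had 84, 81, 65 and 71 counts beside 209, 171, 82 and 151 for Rpl36a, and Rpl22l1 had 10, 8, 8 and 11 beside 81, 81, 25 and 52 for Rpl22. Rpl7l1 had 18, 19, 20 and 21 counts. Rps27l lay above its member in every library, with 25, 23, 10 and 17 counts beside 2, 2, 0 and 2 for Rps27, which has no unique window. No tested paralogue passed the trend test (0 of 4).

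Many snoRNAs, guides for the modification of ribosomal RNA, lie within ribosomal protein genes. The annotation placed 58 snoRNA loci inside 30 members. All 18 loci that lie wholly inside annotated exons of the host were listed at 0 in every library. Reads that fall on a locus and on its host exon are set aside as ambiguous (between 37283 and 48762 reads per library for all genes), so that these zeros are no measure of the loci. Of 20 loci in introns whose symbol is used for no other locus, 17 had counts. Whether the reads on these loci came from capped RNA was not tested. Rps12 itself was at 0, but Snord100 in its introns had 690, 995, 611 and 719 counts and SNORD101 945, 1142, 863 and 868. Snora7a in Rpl32 had 921, 1147, 1145 and 773 counts, more than Rpl32, and Snord16a in Rpl4 had 292, 100, 48 and 245.

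Among other genes of the ribosome and its production, none was called in the trend test, which called 0.108% of all genes and so leaves little to be seen in short lists. Fau, which encodes a small subunit protein fused to a ubiquitin-like protein, had 206, 96, 54 and 104 counts. It was highest at 3 months, with 0.477-fold (0.37 to 0.61), 0.436-fold (0.317 to 0.591) and 0.638-fold (0.499 to 0.812) of this level later. Gnb2l1 (Rack1), a signalling scaffold on the small subunit, had 107, 145, 109 and 105 counts. In the trend test neither of these genes, 0 of 22 tested genes for ribosome biogenesis, 0 of 6 for RNA polymerase I and 0 of 2 for small subunit assembly factors passed. Of 18 tested genes with other TOP mRNAs none did, and of 13 regulators of TOP mRNAs none. Among these genes, the unadjusted p was below 0.05 only for Eef1a1, the elongation factor that brings tRNA, and for Eif4ebp1, a repressor of translation initiation. Eef1a1 had 15969, 14351, 8990 and 20819 counts (adjusted p = 0.794, edgeR's quasi-likelihood test). Eif4ebp1 had 641, 1113, 973 and 1054 counts (adjusted p = 0.383, same test).

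Markers of other liver cells were not equal in the 4 libraries. The 6 endothelial genes summed to 559, 436, 388 and 451 cpm, but did not move as 1. Against 3 months, 1, 0 and 1 of them were past 1.5-fold higher and 2, 2 and 3 lower at 9, 15 and 21 months. Of all 2974 genes with a mean of at least 20 counts, 12.1%, 11.6% and 12.3% were higher and 14.7%, 21.8% and 16.7% lower. The 11 Kupffer cell genes summed to 870, 1030, 1040 and 1180 cpm. Of the 10 with a mean of at least 20 counts, 4, 1 and 3 were higher and 1, 2 and 0 lower by the same measure. The B and plasma cell genes summed to 3, 14, 24 and 51 counts, where Ighm rose and Ms4a1 was at 0. Only 1 gene of this list was tested for an age trend, and it was called rising, as were 0.0539% of all genes. With 3 counts for the whole list at 3 months, the rise starts near the limit of detection. Stellate cell genes summed to 332, 565, 540 and 514 cpm and erythroid genes to 1610, 2360, 1710 and 1380 cpm. T and NK cell genes, cholangiocyte genes and neutrophil genes had at most 20 summed counts per library. Their part in the values of the ribosomal protein genes was not tested.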

How the data were processed

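The deposited files hold raw counts per gene symbol, 1 file per age, which the authors made from SOLiD reads of pooled, 5’-cap enriched liver RNA mapped with the CLC Genomic workbench to mm9, with about 1 mismatch allowed. HTSeq is named in the submitters' processing notes, and its version and strand setting are not given in the sources used here. Some genes, and 1 alternative that needs them, are not reported here. Lines for reads not assigned to a gene were left out of all sums. The name rule for the members and the gene lists were chosen with earlier results of these data known. Genes were named by rule: members past the trend test, those with extreme mean or variance of clr or extreme ratios, known roles, paralogues, and the smallest p of each list.

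The clr and its variance (divisor 3) were calculated over 8704 genes with a count in every library. Ratios had exact Clopper-Pearson and shares Wilson intervals at 95%, for counting error only. Folds past 1.5 and chi-square tests (3 degrees of freedom, Benjamini-Hochberg adjusted) used a mean of at least 20 counts. A linear age slope was tested with edgeR 4.0.16 (TMM, filterByExpr, adjusted p of 0.05) and DESeq2 1.42.0 in R 4.3.3, and tests were tried on simulated counts. As the mice were pooled, p-values of the trend tests measure the spread between 4 libraries. Those of the chi-square tests are set against counting error only. Positions and windows came from GENCODE M1 on NCBIM37, and Python 3.11.15 was used.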

Additional observations from a re-analysis of the deposited data

Results flagged for a closer look

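Reads were also counted for annotated pseudogenes that share 35-base windows with the members, which lie outside the comparisons above. Of 864 such pseudogenes 147 had a count, and their counts summed to 1363, 1308, 713 and 1174 at 3, 9, 15 and 21 months. For 4 of the 10 most counted, the summed counts exceeded those of the parent gene more than 10-fold. Gm3355 on chromosome 17 (13999324 to 13999810, minus strand), a copy of Rpl21, had 461, 320, 175 and 399 counts, in sum 1355. It matched 385 windows of Rpl21, of which 118 had no match in Rpl21 itself. Gm13680 on chromosome 2 (83193314 to 83194106, minus strand), a copy of Rps4x, had 355, 423, 230 and 342 counts, in sum 1350, while Rps4x had 6, 8, 7 and 10. Gm10294, a copy of Rpl17, had 184 counts in sum, and Rpl3-ps1, a copy of Rpl3, 72. From which gene these reads came was not tested.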

How the results depend on the processing

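Of 131 values under other settings, 97 stayed within the range set for no change and 34 moved. This range was 1.5-fold for a count of genes, the 95% Wilson interval for a share, and the interval between the ordered values that covers the median of the 34 genes at 95%, a wide one. Medians within it changed from -0.24 to -0.39 at 15 months with a pseudocount of 0.5, and turned in sign to 0.04 at 15 months and 0.01 at 21 months (from -0.07) over members with at least 50% unique windows. The depth limits the 42 members with a mean under 20 counts, and with 1 library per age no setting replaces replicates. Other scale factors shifted the log2 ratios to 3 months by at most -0.157 (7 marker genes, 9 months) and 0.13 (the same genes, 15 months), and by 0.129 for library totals at 15 months. Members past 1.5-fold lower were then 13 at 9 months with the marker genes, and 7 at 15 months with TMM, library totals or marker genes. Higher members at 15 months were 4 with library totals and 5 with marker genes, and at 21 months 4 with each. Without a minimum mean count, 13, 12 and 11 of 64 members were higher and 17, 23 and 20 lower at 9, 15 and 21 months, beside 24.7%, 26.3% and 24.6% higher and 24.4%, 27.8% and 26.3% lower of all 8704 genes. A pseudocount of 0.5 left 1 higher at 15 months. Members with at least 50% unique windows, a setting chosen after seeing the data, numbered 21, of which 4 (19.0%) were lower at 9 months, 5 (23.8%) lower at 15 months and 0 higher at 21 months, beside 14.7%, 21.8% and 12.3% of all genes.

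The share of the members was 1.2, 0.855, 0.851 and 0.931% without the 10 most abundant other genes and 0.625, 0.497, 0.514 and 0.579% without Rpsa, also chosen after seeing the data. Both clr criteria were met by 14 members when 10 counts in every library were asked for and by 51 with a pseudocount of 0.5. Leaving out an age gave 26 to 31 members for these criteria and 16 to 19 beyond counting noise.

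The number of falling members was 0 with library totals, the geometric mean or DESeq2's Wald test. The adjusted p of Rpsa ranged from 0.00756 to 0.999 over all settings (edgeR's quasi-likelihood test and DESeq2). Leaving out an age gave 0 to 2 falling and 0 to 1 rising members: without 3 months Rpsa was lost and Rpl36 rose (log2 change of 2.83), and without 21 months Rpl10a also fell (-2.31). No paired analysis was possible because each age had 1 library. The causes were not tested.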
